A study of Mus musculus with 12 samples.

Results

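Transcript levels were compared between splenic B cells of mice given both ODN and IM156 and splenic B cells of untreated mice. The members were the 3 ODN+IM156 libraries and the 3 control libraries, 6 of the 12 libraries of the series, and every gene that passed a filter on low counts, 11857 of 23282 rows. In the series, 4 groups of 3 libraries were set up: control, ODN, IM156 and ODN+IM156. The mice were C57BL/6, wild-type per the sample labels and lupus-prone per the series description, and were 7 weeks old. In the ODN+IM156 group, 30 mg/kg of IM156 was injected into the peritoneum on days 0 and 2, and 50 µg of ODN 1826, a CpG-ODN of class B, on days 1 and 3; control mice received no treatment. ODN mice and IM156 mice, used here only for comparison, received 1 of the agents on the same days. Spleens were taken on day 4. The labels name no vehicle, sex, batch or number of mice behind a library, so p-values measure the spread between these libraries, which may be technical.

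CpG-ODN is a short synthetic DNA with unmethylated CpG motifs; it is taken up into endosomes and activates TLR9, which signals through the adaptor MYD88 to NF-κB and to interferon regulatory factors and drives B cells into activation and division. IM156 is a biguanide that lowers oxidative phosphorylation, the respiration by which mitochondria make ATP. Interferons, released by many spleen cells after TLR9 is engaged, act on B cells and induce antiviral genes, the GTPases that attack vacuoles holding parasites and bacteria, and the machinery that loads peptides onto MHC class I.

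The libraries held 9650775 to 11103365 counts in the 6 libraries compared, and tested genes had a median of 258 counts per library. Levels are given as counts scaled to library size (CPM), fold changes as log2 values of the fit with their standard error, and called genes are those with a Benjamini-Hochberg adjusted p below 0.05 in the quasi-likelihood test of edgeR, fitted to all 12 libraries. Genes of B-cell identity were at 19250 to 20920 CPM in sum in the control libraries and at 19220 to 20200 CPM in the ODN+IM156 libraries, and 0 of the 33 tested were called. Cd79b, a signalling chain of the B-cell receptor, stood at 1557, 1528 and 1307 CPM in the control libraries and at 1287, 1445 and 1364 CPM in the ODN+IM156 libraries. Ms4a1, which encodes CD20, stood at 1225, 1256 and 1171 CPM and at 1139, 1199 and 1146 CPM. Tlr9, the receptor of CpG-ODN, had too few counts to be tested, 68 in all 12 libraries. Its adaptor Myd88 was at 50.99, 48.5 and 48.8 CPM against 57.1, 56.9 and 53.4 CPM and was not called (adjusted p = 0.497).

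Against control, 188 genes were called (1.59% of those tested), 148 higher (1.25%) and 40 lower (0.337%) in ODN+IM156. The change was at least 2-fold for 95 of them, 82 higher and 13 lower, and the median log2 fold change of all tested genes was -0.005. At an unadjusted p below 0.05 there were 1529 genes. Among the largest rises were genes induced by interferon, such as Iigp1, and transcripts of platelets, macrophages and dendritic cells; the largest falls belonged to haemoglobins and to Slc15a2, a transporter of small peptides. The 3 libraries of each group did not overlap for 2288 genes (19.3%). The count of called genes depended on single libraries: it was 88 without control replicate 2, 111 without ODN+IM156 replicate 1 and 96 without ODN+IM156 replicate 3. Without ODN replicate 3, a library of neither group compared, it was 271. Fits without ODN replicate 1 or 2 are not given for this comparison. Every fit without 1 library also changed the genes tested, to 12059 to 12084. With the 6 libraries of both groups fitted by themselves the count of called genes was 396 (3.44% of 11505), and with the 9 libraries outside the ODN group it was 478 (4.08% of 11709). All 188 genes were among those called in both of these fits.

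**Figure D1:**
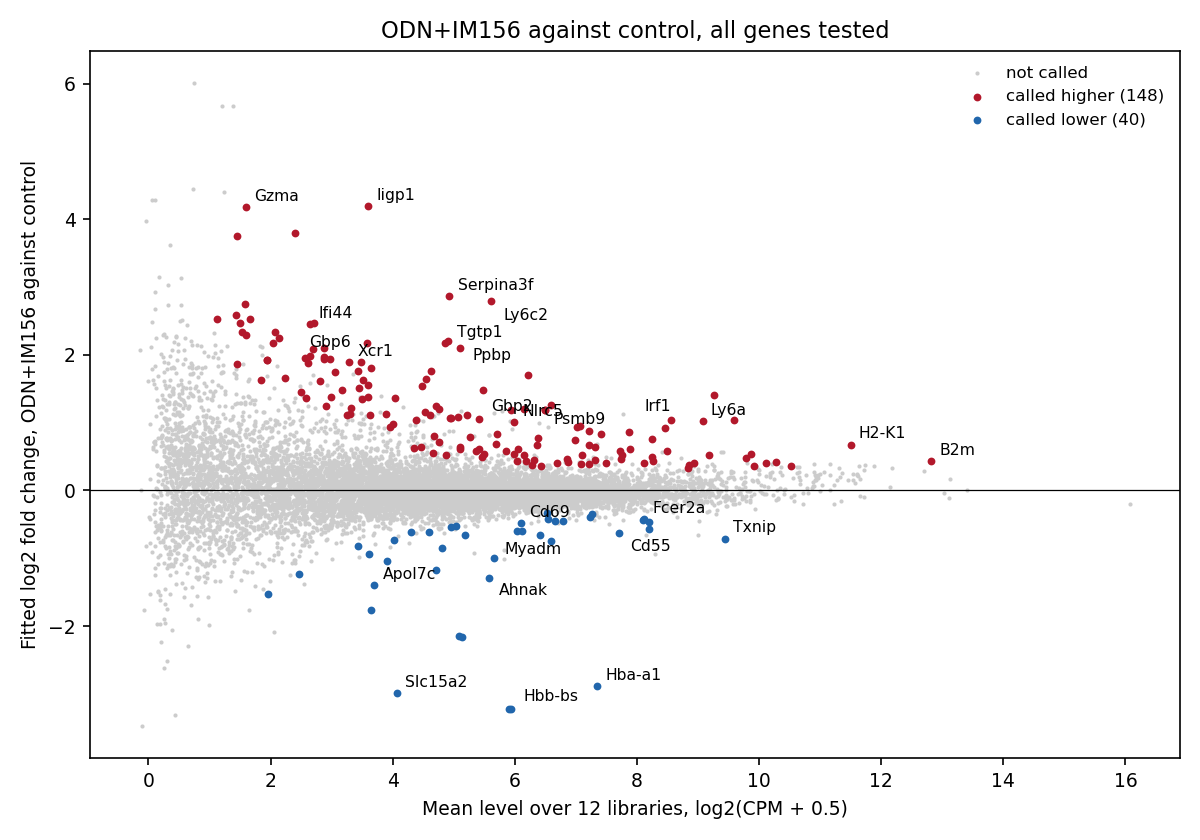
Fitted log2 fold change of ODN+IM156 against control (vertical axis) by mean level over the 12 libraries (horizontal axis, log2 of CPM plus 0.5) for the 11857 genes tested. Red points are the 148 genes called higher and blue points the 40 called lower; grey points were not called. Interferon-inducible genes such as Iigp1, Serpina3f and Tgtp1 lie at the top, and haemoglobin transcripts and Slc15a2 at the bottom.

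The list with the most called genes was that of genes inducible by interferon-gamma: large GTPases of the Gbp family, immunity-related GTPases, and genes downstream of the factor IRF1. Of 31 tested, 19 were called higher and 0 lower, 30 had a positive fold change, and their median log2 fold change was 0.97. Iigp1, an immunity-related GTPase that disrupts the vacuoles of intracellular parasites, stood at 2.48, 2.09 and 0.194 CPM in the control libraries and at 37.5, 20.7 and 29.7 CPM in the ODN+IM156 libraries. Its log2 fold change was 4.19 ± 0.43 (SE, adjusted p = 9.78e-06), the largest of all called genes. Every ODN+IM156 library exceeded every control library, which was a condition of choice for the genes that rose most. Tgtp1, another immunity-related GTPase, rose from 12.7, 10.3 and 14.04 CPM to 65.8, 46.6 and 54.7 CPM, a log2 fold change of 2.17 ± 0.19 (SE, adjusted p = 2.19e-06). Tgtp2, a near-identical copy whose reads may be split between the rows, gave a log2 fold change of 2.20 ± 0.21 (SE, adjusted p = 4.25e-06). Both also overlap Olfr56 on the opposite strand at their 3' ends. Marker genes of macrophages and dendritic cells, which also answer to interferon, were higher in the same libraries, at 1264 to 1376 and 5023 to 5198 CPM in sum against 994 to 1115 and 4500 to 4708 CPM in control. Their part in the rise of the list was not tested.

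Guanylate-binding proteins coat such vacuoles and help to open them. Gbp2 stood at 27.1, 25.4 and 25.2 CPM in the control libraries and at 79.6, 66.4 and 71.2 CPM with both agents, a log2 fold change of 1.48 ± 0.12 (SE, adjusted p = 1.52e-06). The spread within each group was small beside this difference. Gbp6 rose from 4.97, 5.44 and 4.74 CPM to 24.9, 17.9 and 25.5 CPM (log2 fold change 2.17 ± 0.21 SE, adjusted p = 8.01e-06), and Gbp10 from 3.58, 2.18 and 2.61 CPM to 12.9, 8.88 and 9.13 CPM (log2 fold change 1.89 ± 0.30 SE, adjusted p = 9.52e-04). These 3 genes kept their call under every alternative in which they were tested. Gbp10 was not tested with the filter at 10 CPM. Gbp7 had a log2 fold change of 1.26 ± 0.13 (SE, adjusted p = 1.10e-05), while Gbp4 had the smallest change of those called, 0.61 ± 0.15 (SE, adjusted p = 0.0406), and lost its call without any 1 of 5 libraries, among them control replicate 2 (adjusted p = 0.141). Gbp8 had a log2 fold change of 0.93 ± 0.24 (SE, adjusted p = 0.0587) and was called only in some alternatives, such as DESeq2 (adjusted p = 0.0133). Serpina3f, a serine protease inhibitor, rose from 8.15, 9.35 and 8.81 CPM to 66.6, 51.05 and 74.97 CPM, a log2 change of 2.87 ± 0.34 (SE, adjusted p = 3.57e-05). Its relative Serpina3g gave a log2 fold change of 1.70 ± 0.25 (SE, adjusted p = 4.16e-04), a call lost in the robust fit (adjusted p = 0.0633). Both lie on chromosome 12.

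Transcription factors linked to these genes were called too. Irf1, a factor that many of them require, stood at 283, 268 and 267 CPM in control and at 579, 475 and 497 CPM in ODN+IM156, a log2 fold change of 0.92 ± 0.18 (SE, adjusted p = 0.00628). The groups did not overlap. The call was lost without control replicate 2 (adjusted p = 0.0528) and in the robust fit (adjusted p = 0.106). Irf8, a factor of B cells and dendritic cells, rose from 781, 698 and 785 CPM to 1090, 1018 and 1038 CPM, a log2 fold change of 0.48 ± 0.08 (SE, adjusted p = 0.00346). Cxcl9, a chemokine for T cells that dendritic cells and macrophages also make, was at 3.08, 4.36 and 2.61 CPM against 20.9, 6.13 and 16.04 CPM (log2 fold change 2.09 ± 0.41 SE, adjusted p = 0.00816). ODN+IM156 replicate 2 was the lowest of its group, and the call was lost without ODN+IM156 replicate 1 (adjusted p = 0.0726), without ODN+IM156 replicate 3 (adjusted p = 0.0505) and without control replicate 3 (adjusted p = 0.0546).

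The promoters of some of these genes are shown because the genes rose together and because 2 short motifs recur in them. The sequences are RefSeq's for GRCm38.p6, 130 bases that end just before the transcription start, printed 5′ to 3′ along the gene's strand. Where a gene had several promoters, the 1 with the most matches to the 2 motifs was printed. Capitals mark matches to GAAANNGAA, the core of the interferon-stimulated response element (ISRE) bound by IRF factors, and to TTCNNNGAA, the gamma-activated site (GAS) of genes that answer to interferon-gamma. Both strands were searched, so an ISRE-type match on the opposite strand reads TTCNNTTTC, and overlapping matches run together.
Tgtp1, chr11:48992247-48992376, minus strand: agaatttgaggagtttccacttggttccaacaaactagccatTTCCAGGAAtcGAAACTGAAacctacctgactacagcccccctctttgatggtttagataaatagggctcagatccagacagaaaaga
Tgtp2, chr11:49064213-49064342, minus strand: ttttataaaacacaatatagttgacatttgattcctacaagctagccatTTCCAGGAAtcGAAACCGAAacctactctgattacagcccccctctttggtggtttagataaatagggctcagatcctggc
Igtp, chr11:58199426-58199555, plus strand: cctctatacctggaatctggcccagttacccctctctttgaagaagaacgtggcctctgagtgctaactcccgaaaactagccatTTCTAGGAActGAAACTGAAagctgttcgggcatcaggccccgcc
Irgm2, chr11:58214847-58214976, plus strand: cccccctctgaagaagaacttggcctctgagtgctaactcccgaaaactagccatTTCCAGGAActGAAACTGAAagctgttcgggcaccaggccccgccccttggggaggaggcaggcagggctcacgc
Gbp7, chr3:142530206-142530335, plus strand: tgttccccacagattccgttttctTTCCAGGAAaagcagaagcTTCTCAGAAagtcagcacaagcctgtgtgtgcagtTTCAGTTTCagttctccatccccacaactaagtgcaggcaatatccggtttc
Gbp2, chr3:142620533-142620662, plus strand: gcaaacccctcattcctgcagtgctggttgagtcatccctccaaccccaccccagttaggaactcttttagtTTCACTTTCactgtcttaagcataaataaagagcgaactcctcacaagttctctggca
Irf1, chr11:53769884-53770013, plus strand: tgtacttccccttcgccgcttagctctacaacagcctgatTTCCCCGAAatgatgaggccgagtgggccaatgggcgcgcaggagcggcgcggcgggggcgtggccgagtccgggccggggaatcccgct
Isg15, chr4:156200819-156200948, minus strand: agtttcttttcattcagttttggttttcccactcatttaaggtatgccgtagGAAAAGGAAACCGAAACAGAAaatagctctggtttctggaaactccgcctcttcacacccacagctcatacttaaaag
Ifit3, chr19:34583399-34583528, plus strand: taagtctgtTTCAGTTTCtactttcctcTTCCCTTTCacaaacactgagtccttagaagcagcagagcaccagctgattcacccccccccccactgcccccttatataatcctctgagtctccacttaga
In Tgtp1, Tgtp2, Igtp and Irgm2, all immunity-related GTPases on chromosome 11, a GAS match begins 11 bases before an ISRE-type match on the same strand. The GAS match begins 88, 81, 45 and 75 bases before the start, in that order. Gbp7 held 2 GAS matches and 1 ISRE-type match, Gbp2 a single ISRE-type match, and Irf1 a single GAS match. Gm12250, a gene model on chromosome 11 that was also called higher, was searched too and is not printed. It held 1 GAS match and 2 ISRE-type matches on the opposite strand, with starts at least 16 bases apart, so it did not share the spacing of 11 bases. These genes descend from common ancestors in part, so their promoters are not independent sequences.

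The levels of 3 genes whose promoters are shown, chosen after their values were seen, moved as follows. Igtp, an immunity-related GTPase, stood at 42.04, 40.5 and 46.3 CPM in the control libraries and at 85.4, 67.6 and 75.6 CPM in the ODN+IM156 libraries, a log2 fold change of 0.83 ± 0.15 (SE, adjusted p = 0.00495). Irgm2, which regulates the other GTPases, stood at 22.9, 21.1 and 24.01 CPM and at 54.7, 48.1 and 39.1 CPM, a log2 fold change of 1.06 ± 0.15 (SE, adjusted p = 2.74e-04). The annotated Igtp and Irgm2 genes overlap on the same strand, so some reads could be assigned to either. Gbp7 stood at 60.03, 61.9 and 68.4 CPM and at 173, 141 and 139.6 CPM. In each of the 3, all ODN+IM156 libraries were above all control libraries. Over the whole promoter of 300 bases, 10 of the 14 called genes of this list with a promoter in the table held an ISRE-type match, 10 held a GAS match and 7 held both. The 8 members with a promoter that were tested and not called held an ISRE-type match in 6 and a GAS match in 2. Of all 27025 genes with a promoter, 9.76% held an ISRE-type match, 9.55% a GAS match and 1.42% both. In all these counts a gene held a match if any of its promoters did, so both motifs may lie in different promoters of a gene. A match describes the letters in this window and does not show that a factor binds there.

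Of the genes that load and present peptides on MHC class I, 7 of 16 tested were called higher and 0 lower, with a median log2 fold change of 0.43 and all 16 fold changes positive (15 with libraries scaled by their totals alone). Nlrc5, the transactivator that switches on class I genes, stood at 48.4, 45.4 and 48.2 CPM in control and 105, 82.5 and 97.8 CPM in ODN+IM156, a log2 fold change of 1.01 ± 0.13 (SE, adjusted p = 9.71e-05). Tap1, a subunit of the pump that moves peptides into the endoplasmic reticulum, rose from 237, 222 and 254 CPM to 429, 383 and 395 CPM (log2 fold change 0.76 ± 0.10 SE, adjusted p = 2.37e-04). H2-K1, a classical class I heavy chain, rose from 2408, 2242 and 2265 CPM to 3781, 3574 and 3702 CPM, a log2 fold change of 0.68 ± 0.08 (SE, adjusted p = 2.74e-05). These 3 calls held under every alternative, but the list's count was 4 without control replicate 3, ODN+IM156 replicate 2 or ODN+IM156 replicate 3. B2m, the light chain shared by all class I molecules, which Patl2 overlaps on the opposite strand at the 3' end, was among the most abundant transcripts, at 6019, 6033 and 5277 CPM against 7356, 8104 and 7926 CPM, a log2 fold change of 0.43 ± 0.09 (SE, adjusted p = 0.0121). The call of B2m was lost without control replicate 3 (adjusted p = 0.0696), without ODN+IM156 replicate 2 (adjusted p = 0.0677) and without ODN+IM156 replicate 3 (adjusted p = 0.0815).

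H2-Q9, a non-classical class I gene outside the list, had the smallest adjusted p of all the genes named here. It stood at 346, 355 and 386 CPM in the control libraries and at 979, 941 and 966 CPM in the ODN+IM156 libraries, a log2 fold change of 1.41 ± 0.09 (SE, adjusted p = 2.33e-08). H2-T22, another non-classical gene, gave a log2 fold change of 0.95 ± 0.11 (SE, adjusted p = 2.74e-05). The H2-Q and H2-T genes are near-copies of one another, and reads may be divided between their rows. Of 37 proteasome genes, 2 were called, both inducible by interferon: Psmb9, a subunit that cuts peptides, and Psme1, a subunit of an activator of the proteasome. Psmb9 rose from 182, 149.8 and 160.2 CPM to 313, 282 and 297 CPM (log2 fold change 0.86 ± 0.09 SE, adjusted p = 1.16e-05), and Psme1 from 288, 249.9 and 255 CPM to 369, 368 and 379 CPM (log2 fold change 0.49 ± 0.09 SE, adjusted p = 0.00628). Psme1 overlaps Emc9 on the opposite strand at its 3' end, and Emc9 was itself called (log2 fold change 0.52 ± 0.10 SE, adjusted p = 0.00502). Reads there cannot be told apart without a strand rule. Psme1 lost its call without control replicate 2 (adjusted p = 0.0574). MHC class II genes stayed near the median of all genes, with 1 of 16 called, Ifi30, a thiol reductase of the endosome (log2 fold change 0.52 ± 0.11 SE, adjusted p = 0.0164). The call of Ifi30 was lost without control replicate 2 (adjusted p = 0.129), control replicate 3 (adjusted p = 0.0616), ODN+IM156 replicate 1 (adjusted p = 0.0598) or ODN+IM156 replicate 3 (adjusted p = 0.109).

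Among genes stimulated by type I interferon, 11 of 65 tested were called higher and 1 lower, and the median log2 fold change was 0.22. The count higher was 7 without control replicate 2, control replicate 3 or ODN+IM156 replicate 3. Ly6c2, a surface protein of monocytes and some lymphocytes, stood at 10.8, 11.1 and 12.1 CPM in control and at 80, 68.5 and 87.3 CPM with both agents, a log2 fold change of 2.79 ± 0.26 (SE, adjusted p = 4.25e-06). Ifi44 rose from 2.29, 1.72 and 2.03 CPM to 10.9, 11.5 and 10.7 CPM (log2 fold change 2.45 ± 0.28 SE, adjusted p = 2.48e-05). Ly6a, which encodes Sca-1, rose from 358, 340.5 and 331 CPM to 683, 731 and 672 CPM (log2 fold change 1.02 ± 0.10 SE, adjusted p = 9.78e-06). Zbp1, a sensor of Z-form nucleic acids, rose from 26.04, 20.3 and 22.2 CPM to 53.02, 41.2 and 51.4 CPM (log2 fold change 1.09 ± 0.13 SE, adjusted p = 6.10e-05). In these 4 genes the groups did not overlap, as in 19.3% of all tested genes. For Ly6c2 and Ifi44, among the genes that rose most, this was a condition of choice. The 4 calls held under every alternative in which the gene was tested. Ifi44 was not tested with the filter at 10 CPM.

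Several antiviral genes often used as a readout of type I interferon had small or uncalled differences. Isg15, a ubiquitin-like modifier, stood at 26.1, 17.5 and 16.1 CPM in control and 32.8, 28.96 and 36.2 CPM in ODN+IM156. It was called at 0.72 ± 0.17 (SE, adjusted p = 0.0306). The call was lost without control replicate 2 (adjusted p = 0.183), control replicate 3 (adjusted p = 0.144), ODN+IM156 replicate 1 (adjusted p = 0.0972) or ODN+IM156 replicate 3 (adjusted p = 0.183). Ifit3, which binds viral RNA ends, stood at 43.8, 27.4 and 23.9 CPM against 36.2, 29.1 and 32.97 CPM, with 0.05 ± 0.20 (SE, adjusted p = 0.952), and its groups overlapped. Irf7, the factor that amplifies type I interferon, had a log2 fold change of 0.44 ± 0.16 (SE, adjusted p = 0.219). Phrf1 overlaps it on the opposite strand. Both promoters printed above, of Isg15 and Ifit3, hold ISRE-type matches and no GAS match, 3 over the 300 bases in each. Of the 40 members of this list that were tested, not called and have a promoter in the table, 22 held an ISRE-type match and 7 a GAS match. Of the 8 called higher, 3 held an ISRE-type match and 0 a GAS match. Samd9l, an antiviral growth suppressor, was the gene called lower, at 312, 346 and 263 CPM against 220.4, 234 and 229 CPM (log2 fold change -0.43 ± 0.09 SE, adjusted p = 0.0201). It lost its call in 5 of the fits without 1 library, among them that without control replicate 2 (adjusted p = 0.152).

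ODN alone, which shares its control libraries with this comparison, gave these values for the same lists. The interferon-gamma inducible list had 14 of 31 members called higher against control and a median of 0.52, the MHC class I list 6 of 16 and 0.33, and the type I list 13 of 65 and 0.12, where 10.6% of all genes were called. The median with both agents was the higher of the 2 in each list. The summed level of the class I list went the other way, at 15040 to 15320 CPM with both agents and 15710 to 16560 CPM with ODN alone. For the other lists the sums of these groups overlapped. ODN+IM156 was then tested against ODN directly, where 8 genes were called among all tested (0.0675%), and none belonged to these 3 lists. The median log2 difference between ODN+IM156 and ODN was 0.49 for the interferon-gamma list, 0.11 for the type I list and 0.08 for the class I list. Iigp1 stood at 10, 12.02 and 20.9 CPM in the ODN libraries, and the log2 difference of ODN+IM156 from ODN was 1.04 ± 0.34 (SE, adjusted p = 0.1297), not called. Nlrc5 stood at 51.7, 66.1 and 79.03 CPM in the ODN libraries, and that difference was 0.53 ± 0.13 (SE, adjusted p = 0.0622), also not called. For Irf1 the ODN libraries ran from 251 to 523 CPM, so that ODN replicate 3 lay within the range of the ODN+IM156 libraries.

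**Figure D2:**
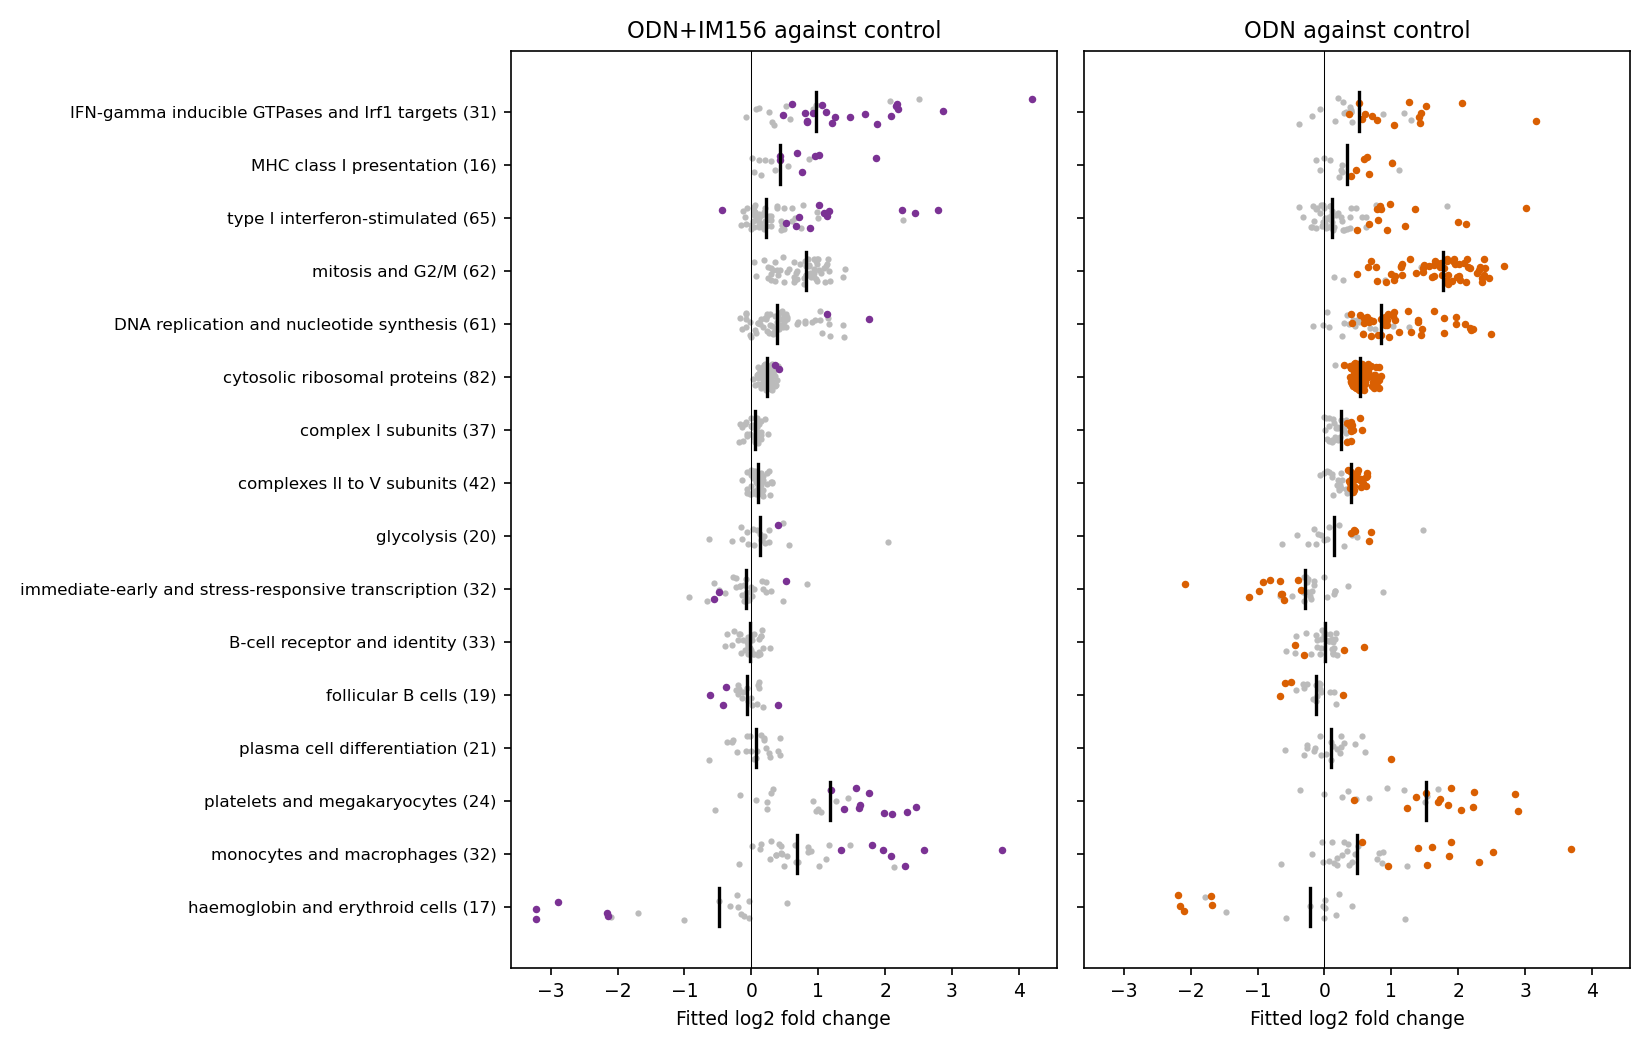
Fitted log2 fold changes of the members of 16 gene lists (rows, number tested in parentheses) for ODN+IM156 against control (left) and ODN against control (right), which share the control libraries. Points are genes, coloured where called; black bars are list medians. Mitosis genes have a median of 0.82 on the left and 1.77 on the right, and the interferon-gamma inducible list 0.97 and 0.52.

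**Figure D3:**
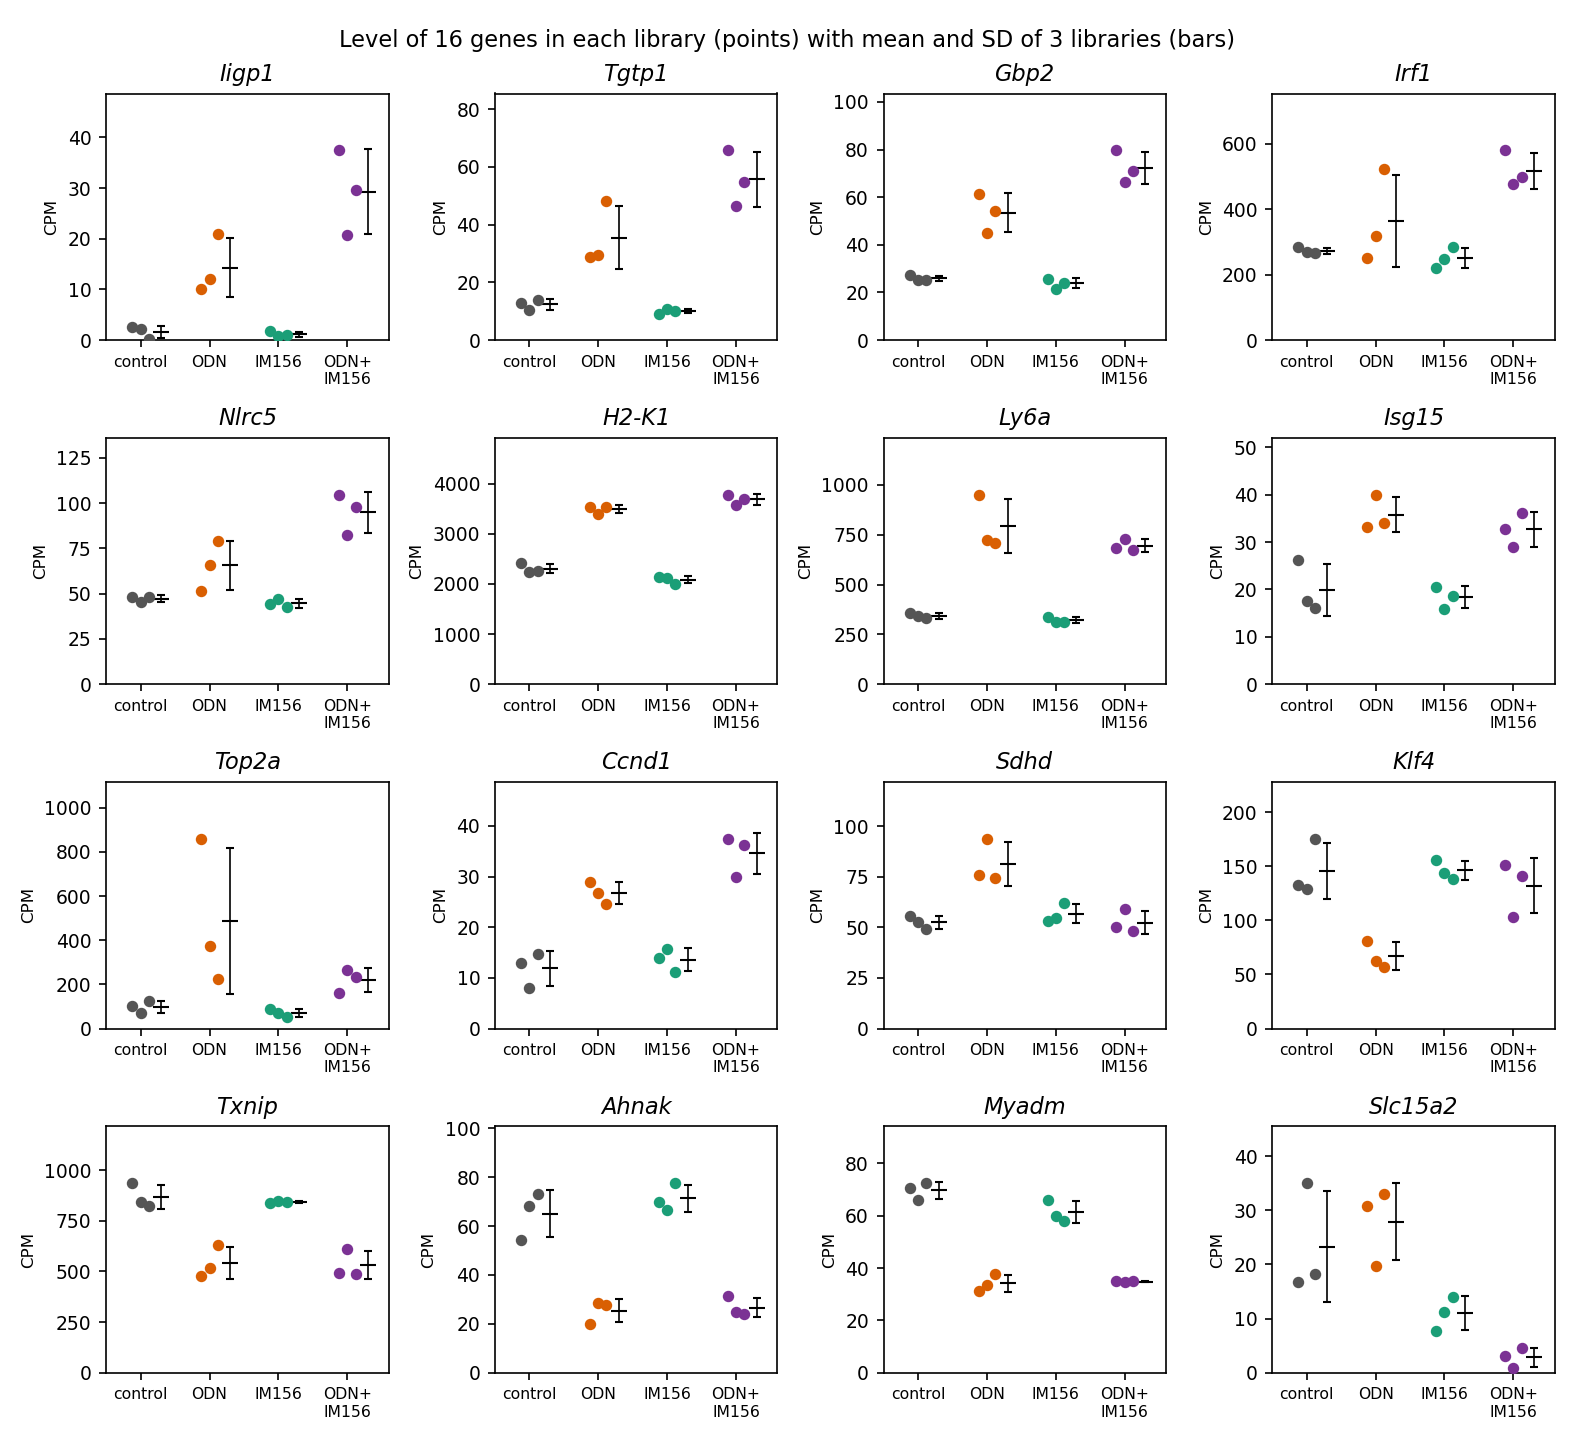
Level of 16 genes in CPM (vertical axes, from 0) in the 3 libraries of each group (points), with the mean and SD of the 3 libraries beside them. The ODN+IM156 libraries lie above the control libraries in each of the 8 genes of the top rows, Sdhd overlaps control, and Slc15a2 lies below every other library.

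Genes of mitosis had positive fitted differences between ODN+IM156 and control, and none of the 62 tested was called in the main analysis. In a fit of the same 12 libraries without a filter on low counts, 44 were called, where 531 of all 17399 genes were called. All 62 fold changes were positive, under each scaling tried, with a median of 0.82 on the log2 scale. The 3 libraries of each group did not overlap for 37 of the 62, against 19.3% of all tested genes. Top2a, the topoisomerase that untangles DNA before division, stood at 104, 70.4 and 124 CPM in control and 159, 264 and 232 CPM in ODN+IM156, with a log2 fold change of 1.13 ± 0.33 (SE, adjusted p = 0.102). Cdk1, the kinase that starts mitosis, stood at 13.02, 10.8 and 20.3 CPM and 26.1, 42.6 and 30.8 CPM (log2 fold change 1.17 ± 0.31 SE, adjusted p = 0.0657). Mki67, a marker of dividing cells, stood at 46.5, 29.9 and 68.1 CPM and 59.1, 108 and 109.8 CPM (log2 fold change 0.94 ± 0.37 SE, adjusted p = 0.262), and its groups overlapped, with ODN+IM156 replicate 1 below control replicate 3.

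The number of mitosis genes called differed with the filter and with the libraries fitted. Without the filter, the adjusted p was 1.19e-25 for Top2a, 5.27e-13 for Cdk1 and 4.39e-15 for Mki67, at nearly the same fold changes. The cause of this shift was not tested. With only the 6 libraries of both groups, 26 mitosis genes were called higher, with the 9 libraries outside the ODN group 28, and without ODN replicate 3 alone 8. Of all genes, 396 of 11505, 478 of 11709 and 271 of 12083 were called in these fits, in that order. The ODN libraries themselves ranged from 226 to 859 CPM for Top2a, with ODN replicate 1 the highest, and against control 58 of the 62 were called higher in ODN, with a median of 1.77. The median difference between ODN+IM156 and ODN was -0.93, and 0 of 62 were called in that test. Top2a differed by -1.16 ± 0.32 on the log2 scale (SE, adjusted p = 0.0836) and Cdk1 by -1.19 ± 0.29 (SE, adjusted p = 0.0622), ODN+IM156 minus ODN. Genes of DNA replication had 2 of 61 called, Mcm10 and Pole (0 without control replicate 2 or ODN+IM156 replicate 3), and a median of 0.39. In this list, 22 were called without a filter on low counts, 14 with the 6 libraries alone and 17 without the ODN group. Of all genes, these fits called 531 of 17399, 396 of 11505 and 478 of 11709, in that order. Pole, the catalytic subunit of the leading-strand polymerase, rose from 9.24, 5.54 and 9.88 CPM to 15.8, 16.9 and 21 CPM (log2 fold change 1.13 ± 0.23 SE, adjusted p = 0.0113), and lost its call without control replicate 2 (adjusted p = 0.0969) or ODN+IM156 replicate 3 (adjusted p = 0.0967).

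Of 20 tested genes in the list of G1 cyclins, CDK inhibitors and Myc, which govern entry into the cycle, 2 were called higher and 0 lower. The 2 were the cyclins Ccnd1 and Ccnd2. The median log2 fold change of the list was 0.15, and 13 of the 20 were positive. Ccnd1 stood at 12.9, 8.08 and 14.7 CPM in control and 37.5, 29.9 and 36.3 CPM in ODN+IM156 (log2 fold change 1.54 ± 0.19 SE, adjusted p = 4.64e-05), a call that held under every alternative. LTO1 overlaps its 3' end on the opposite strand. Ccnd2, the main D-type cyclin of B cells, stood at 185, 138 and 194 CPM and 266, 262 and 244 CPM (log2 fold change 0.58 ± 0.12 SE, adjusted p = 0.00927). It lost its call without control replicate 2 (adjusted p = 0.0754) or ODN+IM156 replicate 1 (adjusted p = 0.0554). Myc, which drives growth, had a log2 fold change of 0.19 ± 0.14 (SE, adjusted p = 0.649) and was not called.

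Ribosomal protein genes had small positive fitted differences. All 82 had a positive fold change under each scaling, with a median of 0.23 on the log2 scale. Of these, 2 were called (2.44%, against 1.59% of all genes), Rplp0 and Rpl39. Rplp0, of the ribosomal stalk, stood at 944, 828 and 849 CPM in control and 1051, 1297 and 1138 CPM in ODN+IM156 (log2 fold change 0.41 ± 0.10 SE, adjusted p = 0.0334). The count was 24 with DESeq2, 14 without a filter on low counts and 17 with the 6 libraries alone. It was 26 without the ODN group and 11 without ODN replicate 3. It was 0 without control replicate 2, control replicate 3, ODN+IM156 replicate 2 or ODN+IM156 replicate 3. Of all genes, 324 were called with DESeq2, 531 without a filter and 396 with the 6 libraries. Without the ODN group 478 were called, and without ODN replicate 3 271. In ODN against control, 81 were called, with a median of 0.54. Many of these genes have processed pseudogenes whose reads may not be separable. Of the elongation factors, Eef1b2 rose from 1035, 967 and 938 CPM to 1223, 1386 and 1322 CPM (log2 fold change 0.42 ± 0.09 SE, adjusted p = 0.01703). Its call was lost without control replicate 2 (adjusted p = 0.0865), control replicate 3 (adjusted p = 0.075), ODN+IM156 replicate 2 (adjusted p = 0.103) or ODN+IM156 replicate 3 (adjusted p = 0.0934). Npm1, a nucleolar chaperone of ribosome assembly, was at 553, 570.2 and 524 CPM against 616, 675 and 706 CPM and was not called (adjusted p = 0.18), as were the other 32 nucleolar genes tested.

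Genes of the respiratory chain, the process that IM156 lowers, lay close to control. None of 37 complex I subunits and none of 42 subunits of complexes II to V was called, with medians of 0.06 and 0.10, while 12 and 25 of them were called higher in ODN against control. Sdhd, the membrane anchor of succinate dehydrogenase, stood at 55.5, 52.8 and 49.1 CPM in control, 75.9, 93.8 and 74.3 CPM in ODN and 50.3, 58.9 and 48.1 CPM in ODN+IM156. Its log2 difference from control was -0.002 ± 0.11 (SE, adjusted p = 0.997), whereas it was lower than in ODN by 0.64 ± 0.11 on the log2 scale (SE, adjusted p = 0.0349). Every ODN library was above every control and every ODN+IM156 library. Ndufb5, of complex I, had a log2 fold change of 0.08 ± 0.10 (SE, adjusted p = 0.808) against control and -0.46 ± 0.10 (SE, adjusted p = 0.0622) against ODN, and Uqcrh, of complex III, 0.17 ± 0.10 (SE, adjusted p = 0.509) and -0.44 ± 0.10 (SE, adjusted p = 0.0622). Ucp2, a carrier of the inner mitochondrial membrane, rose from 88.2, 76.5 and 86.6 CPM to 106, 106 and 121 CPM (log2 fold change 0.41 ± 0.09 SE, adjusted p = 0.0269). Dnajb13 overlaps its 3' end on the opposite strand. The call of Ucp2 was lost without control replicate 2 (adjusted p = 0.167), control replicate 3 (adjusted p = 0.0565), ODN+IM156 replicate 1 (adjusted p = 0.0622) or ODN+IM156 replicate 3 (adjusted p = 0.194). With libraries scaled by their totals alone it was lost too (adjusted p = 0.0605).

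Other metabolic lists held at most 2 called genes each. In glycolysis 1 of 20 was called, Gpi1, the isomerase of the step after hexokinase, from 137, 113 and 112 CPM to 153, 166 and 158 CPM (log2 fold change 0.39 ± 0.09 SE, adjusted p = 0.0345). The call of Gpi1 was lost in all but 1 of the fits without a library of either group, among them that without ODN+IM156 replicate 1 (adjusted p = 0.0809). Ldha, which makes lactate, had a log2 fold change of 0.21 ± 0.09 (SE, adjusted p = 0.355) and Hk2, the first enzyme of the path, 0.26 ± 0.16 (SE, adjusted p = 0.547). None of 20 genes of the citric acid cycle, of 96 of the mitochondrial ribosome and import, or of 30 of the AMPK and mTOR complexes was called. Among 28 genes of the ATF4 stress response, a sensor of failing mitochondria and of missing amino acids, 1 was called, Wars, a tRNA synthetase that interferon also induces (log2 fold change 0.81 ± 0.19 SE, adjusted p = 0.0341). It lost its call in 5 fits without 1 library, among them that without control replicate 2 (adjusted p = 0.203). Atf4 had a log2 fold change of -0.21 ± 0.10 (SE, adjusted p = 0.4), Ddit3 -0.09 ± 0.11 (SE, adjusted p = 0.795), and Asns and Trib3 were low, with means of 1.23 and 1.25 CPM in control, and were not called (adjusted p = 0.7603 and 0.391).

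The genes that fell included a regulator of glucose uptake, a membrane scaffold and surface molecules of follicular B cells. Txnip, which binds thioredoxin and limits glucose uptake, stood at 935, 844 and 821 CPM in control and 490.1, 611 and 489.6 CPM in ODN+IM156, and fell by 0.71 ± 0.11 on the log2 scale (SE, adjusted p = 6.27e-04). Ahnak, a large scaffold protein under the plasma membrane, fell from 54.2, 68.2 and 72.9 CPM to 31.2, 24.7 and 23.9 CPM, by 1.29 ± 0.15 on the log2 scale (SE, adjusted p = 2.48e-05). Myadm, a membrane protein of lipid rafts, fell from 70.6, 65.9 and 72.4 CPM to 35, 34.6 and 34.9 CPM, by 1.00 ± 0.10 on the log2 scale (SE, adjusted p = 9.90e-06). Cd55, which shields cells from complement and is high on follicular B cells, fell from 239.5, 274 and 229.9 CPM to 176, 154 and 153 CPM, by 0.62 ± 0.10 on the log2 scale (SE, adjusted p = 0.00161). No ODN+IM156 library reached the lowest control library in any of these 4, a condition of choice for the genes that fell most. All 4 kept their call under every alternative. In the ODN libraries Txnip stood at 479, 518 and 629 CPM, Ahnak at 20.1, 28.6 and 27.6 CPM and Myadm at 31.1, 33.7 and 37.7 CPM, and the difference between ODN+IM156 and ODN was -0.03, 0.06 and 0.03 on the log2 scale.

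Further falls were seen in receptors. Fcer2a, the low-affinity IgE receptor CD23 of follicular B cells, went from 412, 316 and 294 CPM to 258, 253 and 251 CPM and fell by 0.42 ± 0.10 on the log2 scale (SE, adjusted p = 0.0416). Gpr183, which guides B cells to the outer follicle, fell by 0.39 ± 0.09 on the log2 scale (SE, adjusted p = 0.0416), with Ubac2 on the opposite strand at its 3' end. Cd69, an early activation marker, was at 64.5, 91.3 and 69.8 CPM in control and 52.3, 50.7 and 58.1 CPM with both agents, and fell by 0.49 ± 0.12 on the log2 scale (SE, adjusted p = 0.0362). Klf6, a factor induced within minutes of stimulation, fell by 0.56 ± 0.14 on the log2 scale (SE, adjusted p = 0.0478). These 4 calls were lost in several of the fits without 1 library, among them that without control replicate 2 (adjusted p = 0.0716 for Fcer2a, 0.0828 for Gpr183, 0.246 for Cd69 and 0.125 for Klf6). Antxr2, an anthrax toxin receptor that binds matrix proteins, fell from 26.3, 47.7 and 32.8 CPM to 17.8, 12.9 and 16.7 CPM, by 1.17 ± 0.24 on the log2 scale (SE, adjusted p = 0.0112). Its call was lost without control replicate 2 (adjusted p = 0.125), ODN+IM156 replicate 2 (adjusted p = 0.0835) or ODN+IM156 replicate 3 (adjusted p = 0.0589). Il6ra, which binds interleukin-6, fell by 0.93 ± 0.23 on the log2 scale (SE, adjusted p = 0.0406) and lost its call in 5 such fits, among them that without control replicate 2 (adjusted p = 0.275). Lilra6, an immunoglobulin-like receptor, fell by 1.05 ± 0.21 on the log2 scale (SE, adjusted p = 0.00872), and lost its call without ODN+IM156 replicate 3 (adjusted p = 0.0889). Eif2ak3, the kinase PERK that senses unfolded protein, fell from 69.5, 74.1 and 86.95 CPM to 51.6, 47.5 and 53.9 CPM, by 0.59 ± 0.10 on the log2 scale (SE, adjusted p = 0.00346). Cirbp, a cold-inducible RNA-binding protein, fell by 0.60 ± 0.10 on the log2 scale (SE, adjusted p = 0.00182). Apol7c, of the apolipoprotein L family, fell by 1.39 ± 0.25 on the log2 scale (SE, adjusted p = 0.00481), and Gm8221, a gene model that may share its reads, by 1.76 ± 0.23 on the log2 scale (SE, adjusted p = 1.19e-04).

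Slc15a2 had the largest fall outside the haemoglobins. The gene, on the minus strand at chr16:36750177-36784962 of GRCm38, encodes PEPT2, which carries di- and tripeptides and fragments of bacterial cell wall into cells. It stood at 16.7, 35.02 and 18.2 CPM in the control libraries, 30.8, 19.8 and 33.01 CPM in ODN, 7.78, 11.3 and 13.99 CPM in IM156 and 3.11, 0.951 and 4.52 CPM in ODN+IM156. It fell by 2.99 ± 0.37 on the log2 scale (SE, adjusted p = 6.78e-05) against control and by 3.24 ± 0.37 on the log2 scale (SE, adjusted p = 5.19e-04) against ODN. All ODN+IM156 libraries were below all 9 others, and the 3 IM156 libraries were below all control and ODN libraries. The call against control held under every alternative. The test of IM156 against control, in which edgeR called 0 genes and 439 had an unadjusted p below 0.05, gave a log2 fold change of -1.08 ± 0.32 (SE, adjusted p = 0.999) for this gene.

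**Figure D4:**
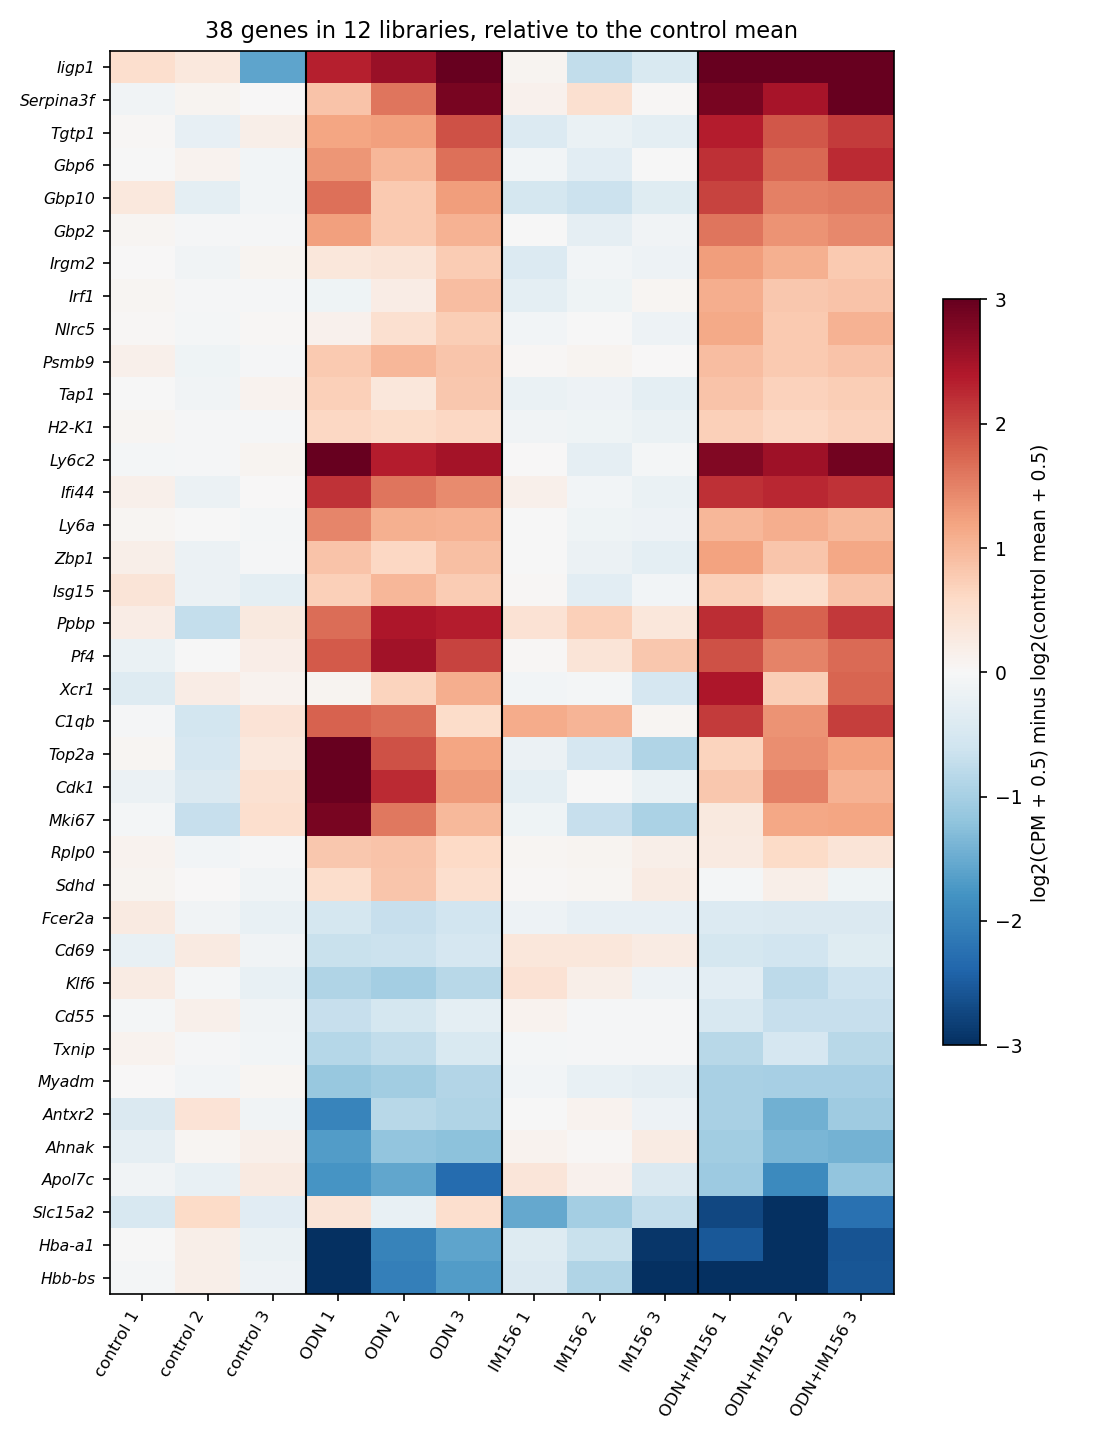
Levels of 38 genes (rows) in the 12 libraries (columns), as log2 of CPM plus 0.5 minus the same for the control mean; colours end at 3 in either direction and larger differences are drawn at the end colour. The ODN and ODN+IM156 libraries share red upper rows and blue lower rows, Top2a, Cdk1 and Mki67 are redder in the ODN libraries, and Slc15a2 is blue in ODN+IM156 and pale in ODN.

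Transcripts of other blood cells also moved between the groups. In bulk samples, fewer cells of a type and less RNA per cell cannot be told apart. Haemoglobin transcripts were lower: of 17 erythroid genes tested, 5 were called lower, all haemoglobin chains, and 0 higher. Hba-a1 stood at 345, 393 and 299.7 CPM in control, 40.4, 86.4 and 116 CPM in ODN, 266, 218 and 45.5 CPM in IM156 and 59.1, 23.2 and 56.98 CPM in ODN+IM156, and fell by 2.89 ± 0.46 on the log2 scale (SE, adjusted p = 9.57e-04). Hbb-bs fell by 3.22 ± 0.51 on the log2 scale (SE, adjusted p = 9.52e-04). The rows of Hbb-b1 and Hbb-b2 held nearly the values of Hbb-bs and Hbb-bt in every library, so each pair may count the same reads. The IM156 group was uneven, with IM156 replicate 3 near the ODN libraries. These haemoglobin calls were lost in the robust fit, where the adjusted p was 0.101 for Hba-a1 and 0.099 for Hbb-bs. The sum of the erythroid list was 958 to 1174 CPM in control and 319.9 to 416 CPM in ODN+IM156.

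Platelet transcripts were higher, with 10 of 24 called and a median log2 fold change of 1.18 (5 called without control replicate 2 and 6 without ODN+IM156 replicate 3); in ODN against control 13 were called, with a median of 1.51. Ppbp, a platelet chemokine, stood at 13.9, 6.99 and 14.6 CPM in control and 56.6, 41.8 and 53.4 CPM in ODN+IM156 (log2 fold change 2.10 ± 0.23 SE, adjusted p = 1.75e-05). Pf4, platelet factor, rose from 8.05, 9.26 and 10.8 CPM to 36.3, 26.9 and 31.7 CPM (log2 fold change 1.76 ± 0.21 SE, adjusted p = 3.57e-05), and Nrgn from 37.1, 27.6 and 37.7 CPM to 88.9, 68.1 and 76.7 CPM (log2 fold change 1.19 ± 0.14 SE, adjusted p = 3.11e-05). The list summed to 361 to 381 CPM in control and 504 to 574 CPM in ODN+IM156. The part of platelets carried along with the B cells in these changes was not tested.

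Macrophage and dendritic cell transcripts were higher as well. Of 32 monocyte and macrophage genes, 7 were called higher (1 without control replicate 2, 2 without ODN+IM156 replicate 1 and 3 without ODN+IM156 replicate 3), with a median of 0.68 and a summed level of 994 to 1115 CPM in control and 1264 to 1376 CPM in ODN+IM156. C1qb, of complement C1, stood at 2.29, 1.45 and 3.29 CPM and 11.6, 6.76 and 11.5 CPM (log2 fold change 2.09 ± 0.39 SE, adjusted p = 0.00611). The call of C1qb was lost without control replicate 2 (adjusted p = 0.0675). Fcer1g, the signalling chain of Fc receptors, stood at 6.86, 4.63 and 5.91 CPM and 22.9, 16.1 and 21.6 CPM (log2 fold change 1.80 ± 0.26 SE, adjusted p = 3.59e-04). Of 29 dendritic cell genes, 7 were called higher (4 without ODN+IM156 replicate 1) and 1 lower, Apol7c, described above. B cells express several of these genes too, such as Irf8. Fold changes were positive for 23 of the 29 and ran from -1.96 to 1.92 on the log2 scale. Siglech, a listed gene with too few counts to be tested, had 7, 12 and 6 counts in control and 0, 0 and 1 in ODN+IM156. The list summed to 4500 to 4708 CPM in control and 5023 to 5198 CPM in ODN+IM156, with Cd300c at 0 in all 6 libraries. Xcr1, the chemokine receptor that defines cross-presenting dendritic cells, stood at 3.78, 6.08 and 5.52 CPM in control, 5.42, 8.42 and 11.5 CPM in ODN and 29.8, 8.88 and 18.4 CPM in ODN+IM156 (log2 fold change 1.89 ± 0.35 SE, adjusted p = 0.00502). ODN+IM156 replicate 1 was the highest, and without it the call was lost (adjusted p = 0.0543). Clec9a, a receptor for dead cells on the same type, stood at 1.39, 1.72 and 1.65 CPM and 8.59, 2.43 and 7.001 CPM (log2 fold change 1.92 ± 0.46 SE, adjusted p = 0.0377). Cadm1, an adhesion molecule of that type outside the list, stood at 3.38, 2.99 and 9.97 CPM and 28.7, 10.7 and 21.3 CPM (log2 fold change 1.90 ± 0.42 SE, adjusted p = 0.0224). Both fell short of the threshold in several fits without 1 library, among them that without ODN+IM156 replicate 1 (adjusted p = 0.191 and 0.127). These genes were high in the same libraries as Cxcl9, with replicate 2 the lowest of the 3 in each, and their part in the rise of interferon-inducible genes was not tested.

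Of the remaining cell types, 0 of 15 T-cell genes were called, and their sum was 322 to 388 CPM in control and 333 to 348 CPM in ODN+IM156. Natural killer and cytotoxic genes had 1 of 11 called, Gzma, granzyme A, at 0.398, 0 and 0 CPM against 2.92, 2.96 and 1.68 CPM. Its call was lost without control replicate 2 (adjusted p = 0.0828) or control replicate 3 (adjusted p = 0.054). For this gene, 2 control libraries had no count. Neutrophil genes had 1 of 7 called, Il1b, at 0.696, 0.635 and 2.13 CPM against 3.302, 4.12 and 5.67 CPM (log2 fold change 1.92 ± 0.44 SE, adjusted p = 0.0305), and summed to 20.8 to 21.4 CPM in control and 37.7 to 48.5 CPM in ODN+IM156, with Ctsg, Fcnb and Stfa1 at 0 in all 6 libraries. The call of Il1b was lost without control replicate 1 (adjusted p = 0.113), control replicate 2 (adjusted p = 0.177), ODN+IM156 replicate 2 (adjusted p = 0.0677) or ODN+IM156 replicate 3 (adjusted p = 0.179).

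**Figure D5:**
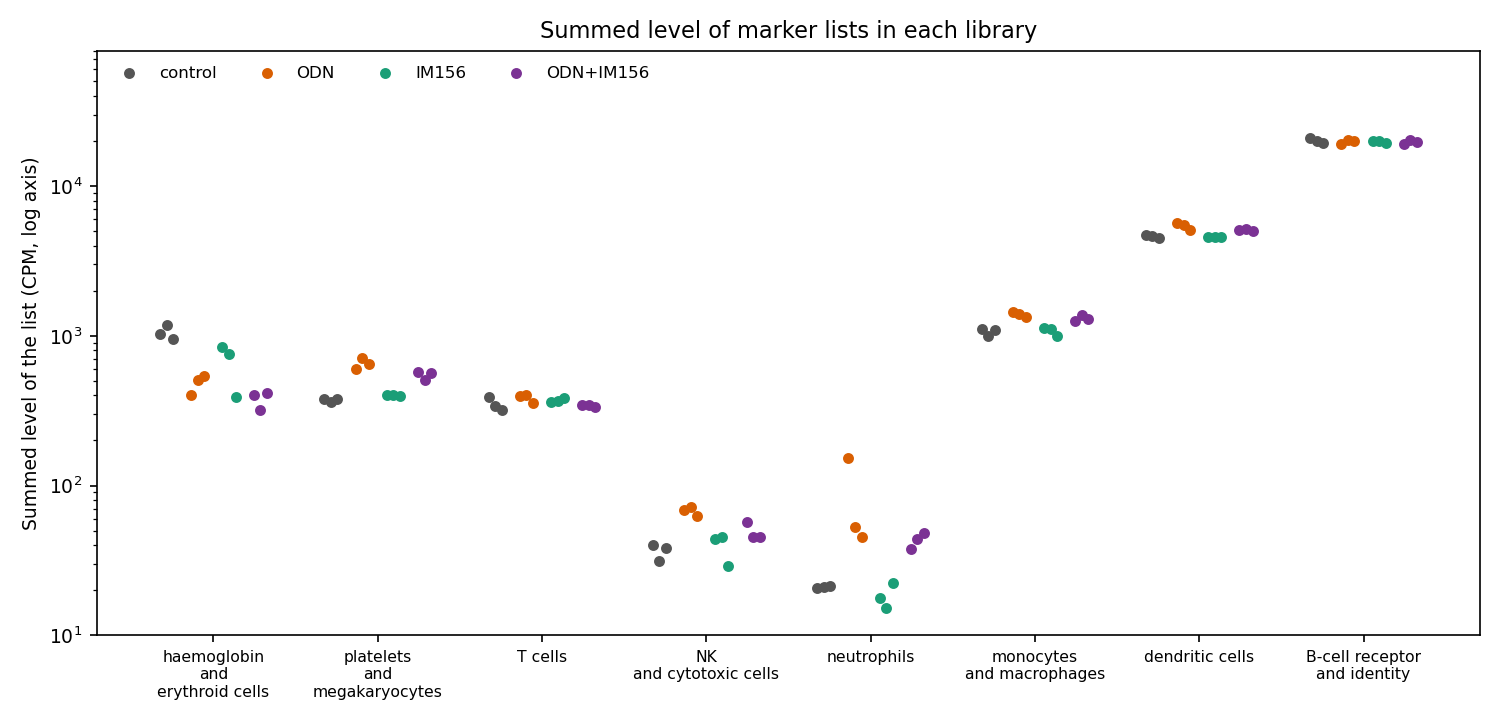
Summed level of each marker list in CPM (vertical axis, logarithmic) in the 12 libraries, coloured by group. Erythroid sums are lower, and platelet, natural killer, neutrophil, macrophage and dendritic cell sums higher, in the ODN+IM156 libraries than in control without overlap; the B-cell list is level.

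B-cell states were described by lists for follicular, marginal zone, germinal centre and plasma cells. Of 19 follicular genes, 3 were called lower, Cd55, Fcer2a and Gpr183, and 1 higher, Bcl2, which blocks cell death, at 241, 219 and 286 CPM against 318, 332 and 338 CPM (log2 fold change 0.40 ± 0.10 SE, adjusted p = 0.0383). Without control replicate 2 the call of Bcl2 was lost (adjusted p = 0.225), and so it was in 4 other fits without 1 library. Of 23 marginal zone genes, 2 were called higher, Plac8 and Fcrl5, the latter lost in 4 fits without 1 library, among them that without control replicate 2 (adjusted p = 0.25). Plac8, a small cysteine-rich protein, stood at 663, 690.4 and 650.1 CPM in control, 1776, 1416 and 1190 CPM in ODN and 895, 1134 and 890 CPM in ODN+IM156 (log2 fold change 0.54 ± 0.12 SE, adjusted p = 0.0228). Its call was lost in 4 fits without 1 library, among them that without control replicate 2 (adjusted p = 0.0828). Cr2, the complement receptor CD21, had a log2 fold change of -0.20 ± 0.17 (SE, adjusted p = 0.688). None of 22 germinal centre genes and none of 21 plasma cell genes was called. Prdm1, the regulator of plasma cells, stood at 3.58, 5.63 and 7.94 CPM against 6.698, 4.33 and 7.09 CPM, Xbp1 at 84.1, 74.04 and 60.03 CPM against 72.7, 73.1 and 60 CPM and Irf4 at 154, 136 and 155 CPM against 131, 118 and 118 CPM. In the list for CD11c T-bet B cells, 3 of 27 were called higher and 1 lower: Itgax, which encodes CD11c and is shared with dendritic cells, rose from 4.97, 3.81 and 5.04 CPM to 14.9, 10.2 and 13.5 CPM (log2 fold change 1.49 ± 0.22 SE, adjusted p = 4.40e-04), with Fcer1g and Fcrl5, while Ahnak fell. Tbx21, which encodes T-bet, stood at 4.08, 1.91 and 4.74 CPM against 6.51, 7.399 and 6.38 CPM without overlap, and was not called (adjusted p = 0.272).

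Surface markers of activation held 2 called genes of 22, Ly6a higher and Cd69 lower. Cd86, a costimulatory ligand for T cells, was at 24.8, 21.8 and 25.8 CPM in control and 28.2, 24.8 and 26.9 CPM in ODN+IM156, Cd40 at 141, 151 and 127 CPM and 134, 131 and 127 CPM, and Cd83 at 252, 219.8 and 207 CPM and 254, 288 and 253 CPM. None was called (adjusted p = 0.688, 0.834 and 0.412). Of 48 genes of the TLR pathway and NF-κB, 1 was called, Traf1, an adaptor that NF-κB induces, at 49, 30.2 and 37.2 CPM against 57.5, 64.3 and 65.2 CPM (log2 fold change 0.69 ± 0.15 SE, adjusted p = 0.0228). It lost its call without control replicate 2 (adjusted p = 0.164), control replicate 3 (adjusted p = 0.0876), ODN+IM156 replicate 2 (adjusted p = 0.0897) or ODN+IM156 replicate 3 (adjusted p = 0.117). Homing receptors had 1 of 27 called, Gpr183. Cxcr4 stood at 204, 382 and 357 CPM against 165, 225 and 210 CPM and was not called (adjusted p = 0.245), with control replicate 1 the lowest of its group; with only the 6 libraries of both groups it was called lower (adjusted p = 0.0171).

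Against ODN, the 8 genes called were Fosb, Klf4, Armc9, Phxr4, Foxo4 and A930013F10Rik, higher in ODN+IM156, and Slc15a2 and Sdhd, lower. Fosb, a subunit of the AP-1 factor, stood at 166, 122 and 166 CPM in control, 96.7, 69.99 and 64.9 CPM in ODN and 217, 128 and 169.5 CPM in ODN+IM156, and differed from ODN by 1.16 ± 0.18 on the log2 scale (SE, adjusted p = 0.01696). Klf4, a factor that holds B cells out of the cycle, stood at 133, 129 and 175 CPM, 81.1, 62.8 and 56.7 CPM and 151, 104 and 141 CPM, and differed from ODN by 0.98 ± 0.15 on the log2 scale (SE, adjusted p = 0.0133). Foxo4, a forkhead factor of resting cells, stood at 95.5, 83.4 and 75.7 CPM, 53.7, 58.99 and 62.2 CPM and 86.9, 84.5 and 94.6 CPM, and differed from ODN by 0.60 ± 0.10 on the log2 scale (SE, adjusted p = 0.0209). In these 3 genes all ODN+IM156 libraries were above all ODN libraries, and their log2 difference from control was 0.18, -0.14 and 0.06, not called. The count of 8 was unstable: it was 1 without ODN+IM156 replicate 1 or ODN+IM156 replicate 3, 2 without ODN replicate 2, 5 without ODN+IM156 replicate 2 and 794 without ODN replicate 3. That last library had a single Xist count (0.0957 CPM) against 924 to 1010 CPM in the other ODN libraries, while the 6 libraries of the main comparison had 965 to 1320 CPM of Xist.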

How the data were processed

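Splenic B-cell RNA was read as QuantSeq 3' mRNA libraries, so reads come from transcript 3' ends. The deposited table held raw read counts per gene, which the authors made before depositing with Bowtie2, bedtools and edgeR against GRCm38/mm10, per the submitters' processing notes; tool versions, the annotation and the strand rule were not given in the sources used here. 12 columns of normalized values per sample were not used. Of 23282 rows, 5883 had no count.

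Counts were filtered with filterByExpr, scaled with TMM and tested with edgeR 4.0.16 (R 4.3.3) in 1 quasi-likelihood fit of the 12 libraries (8 residual degrees of freedom). Adjusted p-values are Benjamini-Hochberg values over the 11857 genes tested, and the call threshold was 0.05. Standard errors are the absolute log2 fold change divided by the square root of the test's F. CPM are counts scaled to the library size after TMM. The scripts were tested on simulated counts with genes changed in the ODN+IM156 group. Of 50 genes changed 1.5-fold, 16 were called in the right direction, of 50 changed 2-fold 37, and of 50 changed 4-fold 48. There, 11 unchanged genes were called. Most 1.5-fold changes were thus missed in the simulation.

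The comparison and the gene lists were chosen with earlier results of these data known. Named genes were, first, the called genes that rose or fell most, up to 15 each, with at least 10 CPM in the higher group and no overlap; then up to 4 called members per list and direction with the smallest p; and a set of genes named whether called or not. Clec9a, Serpina3g, H2-Q9, Gbp7, Irgm2, Gbp8, Irf1, Igtp, Gbp4, Emc9, B2m, Eef1b2, Ucp2, Eif2ak3 and Cirbp were picked once values were known, as were the motifs and the genes called only against ODN. Positions are from GENCODE vM21 (GRCm38), with 146 of 152 named genes on a single place. Promoters are from RefSeq (GRCm38.p6), with 112 of 152 named genes matched. Alternatives were DESeq2 1.42.0, other scalings, other filters, fits of fewer libraries, a robust fit, a replicate block, Rn45s left out, and each library of the groups compared, or ODN replicate 3, left out in turn. Not all named genes are reported here.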

Additional observations from a re-analysis of the deposited data

How the results depend on the processing

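Among the named genes, no called gene changed direction. Against ODN the balance of calls did change. More genes were higher than lower in the main fit, and more were lower with DESeq2, without a filter and with the robust fit. Of the named genes that were not called, 6 had fold changes on both sides of 0 over the alternatives: Ifit3 (-0.12 to 0.35), Prdm1 (-0.16 to 0.39), Sdhd (-0.09 to 0.06), Xbp1 (-0.20 to 0.03), Klf4 (-0.25 to 0.015) and Ddit3 (-0.15 to 0.02). For ODN+IM156 against control, the 188 calls (148 higher, 40 lower) became 324 (241 and 83) with DESeq2, 531 (402 and 129) without a filter on low counts, 396 (301 and 95) with only the groups compared, and 478 (350 and 128) without the ODN group, an alternative chosen after seeing the data. Leaving out 1 library of the groups compared, or ODN replicate 3, gave 88 to 271 calls, 69 to 210 higher and 18 to 61 lower. The other scalings, the filter at 10 CPM, the robust fit and leaving out Rn45s gave 151 to 194. For ODN+IM156 against ODN, the 8 calls (6 higher, 2 lower) became 373 (143 and 230) with DESeq2, 664 (219 and 445) without a filter, 13 (10 and 3) at 10 CPM or more, 11 (10 and 1) with library totals alone, 124 (42 and 82) with the robust fit, and 1 (0 and 1) both with only the groups compared and at an adjusted p below 0.01. Leaving out 1 library gave 1 to 794 calls, 0 to 267 higher and 1 to 527 lower. The cause of these shifts was not tested.

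Replicate numbers were tried as a block. Same-numbered libraries had correlations of -0.1 to 0.079 between their deviations from the group means, and differently numbered ones -0.09 to 0.12. No pairing by number was seen, but 3 libraries a group cannot exclude it. The fit with the replicate block called 171 genes against control (132 higher, 39 lower) and 3 against ODN (2 higher, 1 lower). Scaling by library totals moved the median of all genes to -0.024. With 3 libraries a group and a median of 258 counts, differences in genes of a few CPM rest on few reads.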
